A study of Mus musculus with 2 samples.

Results

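The microRNA (miRNA) genes of imprinted loci outside the large Dlk1-Dio3 and Sfmbt2 clusters, namely Mir296 and Mir298 of the Gnas complex, Mir335 of Mest, Mir483 of Igf2 and Mir675 of H19, were followed in the mouse adrenal gland. They were chosen by locus and not by level, and they are 5 of the 2202 miRNA genes counted. The study sequenced RNA below 30 nucleotides from the adrenal glands of adult male mice of the strain written 5xFAD/CAST, aged 8 to 10 months. This name joins a transgenic Alzheimer's disease model with a wild-derived inbred strain, and the labels give neither the cross nor the transgene status of these animals. There were 2 libraries in 1 group, numbered biological replicates 1 and 2. They had separate sample records and the same donor record, so the spread between them may be partly technical. No second tissue, genotype or treatment was measured, and the data hold no test between conditions.

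An imprinted transcript is made from the copy of a given parent, and a miRNA hairpin lying in that transcript takes on its imprint. Mir335 in Mest, Mir483 in Igf2, and Mir296 and Mir298 on the antisense side of the Gnas complex are paternally expressed, while Mir675 is cut from the maternally expressed noncoding RNA H19. Mest, Igf2 and H19 belong to a group of imprinted genes that are highly expressed before birth and fall in most organs afterwards. In the adrenal cortex, IGF2 is best known from human adrenocortical carcinoma, in which IGF2 and miR-483 are raised. Reads here were counted per hairpin and without allele, so neither the parental copy nor the arm of the hairpin was measured.

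The hairpins are shown because they are the unit that was counted, with the mature arms in capitals. They are RNA sequences from RefSeq on GRCm38.p6, written 5′ to 3′, and all 5 matched the GENCODE M21 transcript base for base.
Mir296: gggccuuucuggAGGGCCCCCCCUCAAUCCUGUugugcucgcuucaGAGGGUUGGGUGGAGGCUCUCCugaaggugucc
Mir298: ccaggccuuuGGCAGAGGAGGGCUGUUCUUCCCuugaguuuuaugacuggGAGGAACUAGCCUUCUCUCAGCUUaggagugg
Mir335: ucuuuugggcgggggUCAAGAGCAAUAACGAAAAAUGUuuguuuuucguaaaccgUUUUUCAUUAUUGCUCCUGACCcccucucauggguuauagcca
Mir483: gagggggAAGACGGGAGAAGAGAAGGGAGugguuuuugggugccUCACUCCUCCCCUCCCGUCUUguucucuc
Mir675: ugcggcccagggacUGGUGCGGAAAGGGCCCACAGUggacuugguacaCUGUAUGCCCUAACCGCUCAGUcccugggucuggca

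The mature arms are shown with their seed, bases 2 to 8, in capitals, because the seed is the stretch by which a miRNA mainly recognises its targets.
miR-296-5p: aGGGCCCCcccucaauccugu
miR-296-3p: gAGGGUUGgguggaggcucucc
miR-298-5p: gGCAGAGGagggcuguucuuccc
miR-298-3p: gAGGAACUagccuucucucagcuu
miR-335-5p: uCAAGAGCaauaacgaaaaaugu
miR-335-3p: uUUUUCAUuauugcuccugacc
miR-483-5p: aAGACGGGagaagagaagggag
miR-483-3p: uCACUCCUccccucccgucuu
miR-675-5p: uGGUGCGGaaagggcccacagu
miR-675-3p: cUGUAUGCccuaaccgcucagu

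None of the 10 arms shared its seed with another of the 1679 mature mouse miRNA names in the RefSeq table, and 72.1% of all names had a seed of their own. The genes therefore fall into no common seed family. With a seed of bases 2 to 7, 4 of the 10 arms had a partner, in Mir5621, Mir6986, Mir7646 and Mir3110. The highest value among these 4 genes was 1.30 CPM, for Mir6986 in replicate 2.

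The sequences differ in base composition. Hairpin GC content was 63.3% for Mir296, 63.1% for Mir675, 58.9% for Mir483, 53.7% for Mir298 and 42.9% for Mir335, beside a median of 50% over the 280 miRNA genes that averaged 10 CPM or more. The arm miR-296-5p holds a run of 7 C bases, the longest run of 1 base in the 10 arms. Mir675 had the lowest predicted folding energy per base of the 5, at −0.667 kcal/mol, and 0.714% of those 280 genes folded more stably. No hairpin of the 5 shared 20 bases with another miRNA hairpin. In the other GENCODE transcripts, the host H19 of Mir675 was the 1 match, so none of the 5 has a near-identical copy among annotated transcripts. Copies elsewhere in the genome were not analysed here.

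In the annotation (GENCODE M21, GRCm38), Mir335 (ENSMUSG00000065501.1) lies on the plus strand of chromosome 6 at 30741299 to 30741396. It lies inside Mest, which encodes a hydrolase-fold protein, and overlaps an exon in 0 of the 11 Mest transcripts. Mir483 (ENSMUSG00000070140.1) occupies bases 142654924 to 142654996 of chromosome 7, minus strand. It is inside Igf2, the gene of insulin-like growth factor 2, and inside the overlapping gene Gm49394, and it touches no exon of either. Mir675 (ENSMUSG00000076275.1) lies on the same strand at 142577064 to 142577147, 77.8 kb from Mir483. It overlaps an exon in 3 of the 7 H19 transcripts, so it is an exonic hairpin. Mir296 (ENSMUSG00000065521.1), at 174267047 to 174267125 of chromosome 2, and Mir298 (ENSMUSG00000065410.1), at 174267504 to 174267585, lie on the minus strand with 378 bases between them. Neither lies inside another annotated gene. The annotated end of Nespas, the antisense RNA of the Gnas complex, is on the same strand, 13.7 kb upstream of Mir298.

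The libraries held 6783227 and 3084602 sense reads of miRNA genes in replicates 1 and 2, 51.4% and 47.6% of all reads in the tables. CPM below is the sense count of a gene per 1000000 of these reads. Multimapping reads, 30.3% and 32.1% of all reads, were assigned to no gene. Intervals are exact (Clopper-Pearson) 95% binomial intervals of 1 library and, like the floors, cover counting error only. Tissue was checked on miRNA markers. Neuroendocrine markers (Mir375, Mir7-1 and Mir7b), which chromaffin cells would carry, summed to 63503 and 87100.1 CPM. Most of this sum was Mir375, at 58717.5 and 82443.4 CPM. Mir7b stood at 4535 and 4423 CPM and Mir7-1 at 250 and 233 CPM, so neither rose in replicate 2. Of the striated muscle markers 4 of 5 had 0 reads, although reads shared by near-identical copies such as Mir1a-1 and Mir1a-2 are not counted. Markers of the acinar pancreas summed to 0.885 and 0.324 CPM. Lists of other organs were not all so low. The liver marker Mir122 stood at 257 and 57.7 CPM, and the kidney list (Mir192, Mir194-2 and Mir204) summed to 109 and 95.6 CPM. The tables hold no mRNA, so cortical marker genes could not be checked.

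As a group, the 5 genes held 0.331% of miRNA reads in replicate 1 (interval 0.327 to 0.335) and 0.203% in replicate 2 (0.198 to 0.208), a mean of 0.267% ± 0.0908 (SD, n = 2). Mir335 alone made up 79.1% and 78.0% of their reads. Mir335, Mir298, Mir296 and Mir483 were above 2 CPM in both libraries, and Mir675 had 0 reads in both. Mean levels of the 4 detected genes ran from 2099 CPM down to 8.39 CPM. In bulk tissue, fewer cells of a type and less RNA per cell cannot be told apart.

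**Figure D1:**
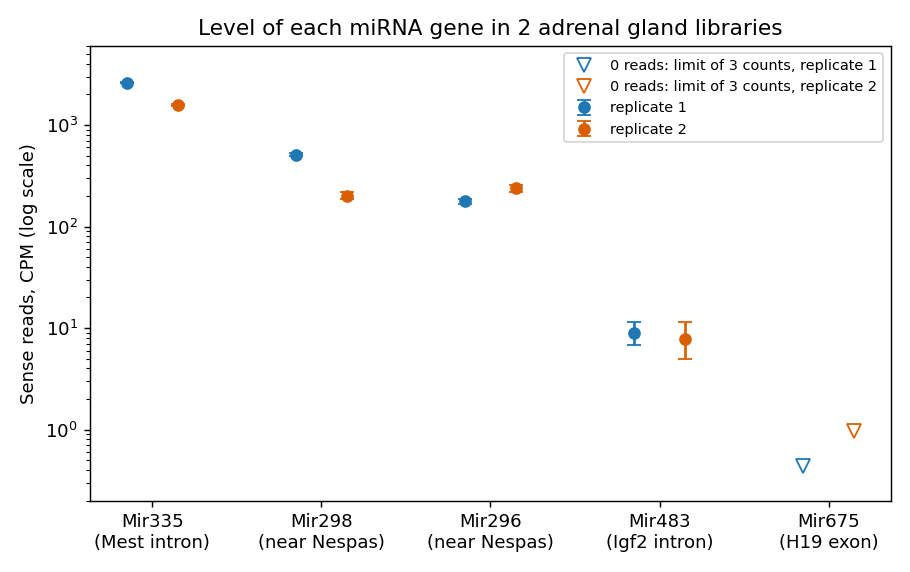
Sense reads in CPM (log axis) of the 5 genes in replicates 1 and 2. Bars are exact 95% intervals for counting error, and open triangles mark the 3-read floor set for a count of 0. Mir335 stands at 2618 and 1580.4 CPM, Mir298 and Mir296 between 177 and 507 CPM, Mir483 at 8.99 and 7.78 CPM, and Mir675 at 0 reads.

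Mir335, whose human counterpart is known as a suppressor of metastasis in breast cancer, had 17756 reads or 2618 CPM in replicate 1 (2579 to 2656). In replicate 2 it had 4875 reads or 1580.4 CPM (1536 to 1625). The mean was 2099 ± 733 CPM (SD, n = 2), and the gene ranked 49 by mean level among the 2202. It was the highest of the 5 in both libraries.

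Mir298, known in mouse cells as a regulator of the amyloid precursor protein protease Bace1, had 3439 reads or 507 CPM in replicate 1 (490.2 to 524). In replicate 2 it had 621 reads or 201 CPM (186 to 218), and the mean was 354 ± 216 CPM (SD, n = 2). Its rank by level moved from 94 in replicate 1 to 139 in replicate 2. Of the 4 detected genes it had the largest spread relative to its mean, 61.0%.

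Mir296, known to repress the pluripotency factor Nanog in mouse embryonic stem cells, had 1204 reads or 177 CPM in replicate 1 (168 to 188). In replicate 2 it had 731 reads or 237 CPM (220.1 to 255), and the mean was 207 ± 42.1 CPM (SD, n = 2). It was the lower of the Gnas pair in replicate 1 and the higher in replicate 2.

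Mir483, the miRNA that is raised together with IGF2 in human adrenocortical carcinoma, had 61 reads or 8.99 CPM in replicate 1 (6.88 to 11.6). In replicate 2 it had 24 reads or 7.78 CPM (4.99 to 11.6), and the mean was 8.39 ± 0.857 CPM (SD, n = 2). The intervals of the libraries overlap, and the rank by mean was 288. Its spread relative to the mean was 10.2%, the smallest of the 4 detected genes. With 61 and 24 reads, this value cannot show that its level is steadier than theirs.

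Mir675, known from mouse placenta as a brake on growth that acts on the receptor Igf1r, had 0 reads in both libraries. With 0 reads counted, a level of up to 3 reads remains possible, equal to 0.442 CPM at the depth of replicate 1 and to 0.973 CPM at that of replicate 2. It was among 1499 genes, 68.1% of the table, without a read in either library. For Mir483 on the same chromosome, the lower limit of its interval was 15.6 times this 3-read floor in replicate 1 and 5.13 times in replicate 2. For Mir335 the lower limit was 5832 and 1579.7 times the floor. Over the upper limits of the Mir675 interval these ratios would be smaller. Whether H19 itself was transcribed in these glands was not measured.

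Opposite-strand reads did not bear on these levels. Mir335 had 2 such reads in replicate 1 and 0 in replicate 2, and the other 4 genes had 0 in both.

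The order of the levels was Mir335, Mir298, Mir296, Mir483 and Mir675 by mean CPM. A pair was called ordered when both libraries ranked it alike and the log2(CPM + 1) gap in each exceeded the replicate difference of either gene, a rule of size in place of a test. By it 9 of the 10 pairs were ordered. The exception was Mir298 and Mir296. On the CPM scale 7 pairs were ordered, since Mir298 against Mir483 and against Mir675 no longer passed: the 306 CPM by which Mir298 differed between the libraries exceeded its whole level in replicate 2. In an exact two-sided permutation test, 2 values against 2 cannot give a p below 0.333.

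Replicate differences are given as log2(CPM + 1) of replicate 2 minus replicate 1, and a gene was called past 2-fold at an absolute difference of at least 1. Mir298 was at −1.33, Mir335 at −0.73, Mir483 at −0.19 and Mir296 at 0.41. Of the 3 members with a mean CPM of at least 10, 1 was called, Mir298, beside 30 of all 280 genes of that level, 10.7%. Over all 280 genes, 4.64% were called lower and 6.07% higher in replicate 2. A difference larger in size than that of Mir298 was found in 14 of the 280 genes, than that of Mir335 in 52 and than that of Mir296 in 98. The median over the 3 members was −0.73, the value of Mir335, beside 0.012 over the 280 genes.

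Counting error was small beside these values. The log2 ratio of the CPM values was −1.33 for Mir298 (exact conditional 95% interval −1.46 to −1.21), −0.73 for Mir335 (−0.77 to −0.68) and 0.42 for Mir296 (0.28 to 0.55). For Mir483, at −0.21 (−0.95 to 0.49), no difference was detectable at this depth. These intervals compare the reads of 2 libraries, and no difference between animals or conditions follows from them.

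**Figure D2:**
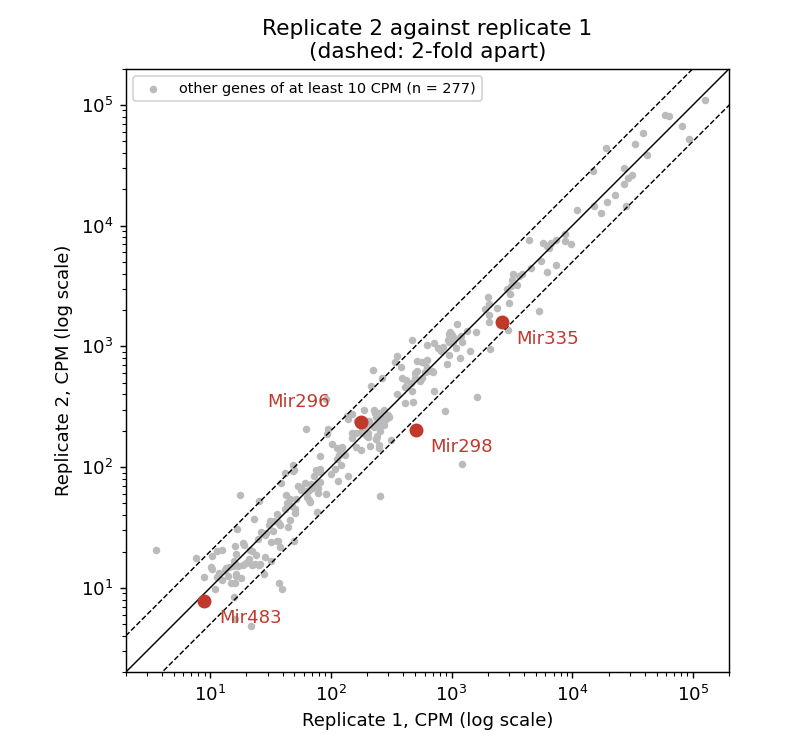
CPM in replicate 2 against replicate 1 (log axes) for the 4 detected genes (red) and 277 other miRNA genes averaging 10 CPM or more (grey); the solid line marks equality and dashed lines a 2-fold difference. Mir298 lies below the lower dashed line, Mir335 between it and equality, Mir296 above equality, and Mir483 near it at the low end.

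Markers of cell types were set beside all genes. Of 22 marker genes, the 3 neuroendocrine ones included, 15 reached 10 CPM. Of these, 2 were past 2-fold lower and 0 past 2-fold higher in replicate 2. That is 13.3%, beside 10.7% of all 280 genes called in either direction and 4.64% called lower. The liver marker Mir122 stood at 257 and 57.7 CPM, and the red cell marker Mir451a at 5351 and 1949 CPM. The endothelial Mir126a stood at 92610.5 and 52519 CPM. Other lists moved less or the other way. Mir144, which lies 99 bases from Mir451a on the same strand, stood at 191 and 187 CPM. The smooth muscle list (Mir143 and Mir145a) summed to 29493 and 25629.6 CPM, the kidney list to 109 and 95.6 CPM, and the leukocyte list to 449 and 546 CPM. The part of such cells in the lower Mir298 and Mir335 of replicate 2 was not tested. 

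In replicate 2 Mir298 was lower and its neighbour Mir296, 378 bases away, was higher, of which the first was past 2-fold. Mir298 stood at 2.86 times the level of Mir296 in replicate 1 and at 0.850 times in replicate 2. Of the reads of the pair, Mir298 held 74.1% in replicate 1 (interval 72.8 to 75.3) and 45.9% in replicate 2 (43.2 to 48.6). The ratio of these ratios was 3.36 (exact conditional 95% interval 2.96 to 3.82). Both intervals cover counting error only.

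The pair was set beside the other close neighbours of the genome, a comparison chosen after its values were seen. Across the table, 54 pairs of miRNA genes lay within 1 kb on the same strand, with both genes at a mean of at least 10 CPM and sharing no 20 bases with another hairpin. The replicate differences of Mir296 and Mir298 lay 1.74 apart in log2, the widest gap of the 54 pairs, whose median was 0.32. The next were Mir497 and Mir195a at 1.58 and Mir363 and Mir20b at 1.52. The order of the genes changed between the libraries in 3 of the 54 pairs, this pair included. It also had the widest gap among 257 pairs within 10 kb and among 83 pairs when hairpins sharing 20 bases were admitted. Its first place among 28 pairs with both genes of at least 100 CPM was fixed, because these are part of the 54. Outside the Dlk1-Dio3 region lay 27 of the 54 pairs, with a median of 0.42, and 45 of the 257. A gene can enter several pairs, so the pairs are not independent. No test was run on this rank.

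**Figure D3:**
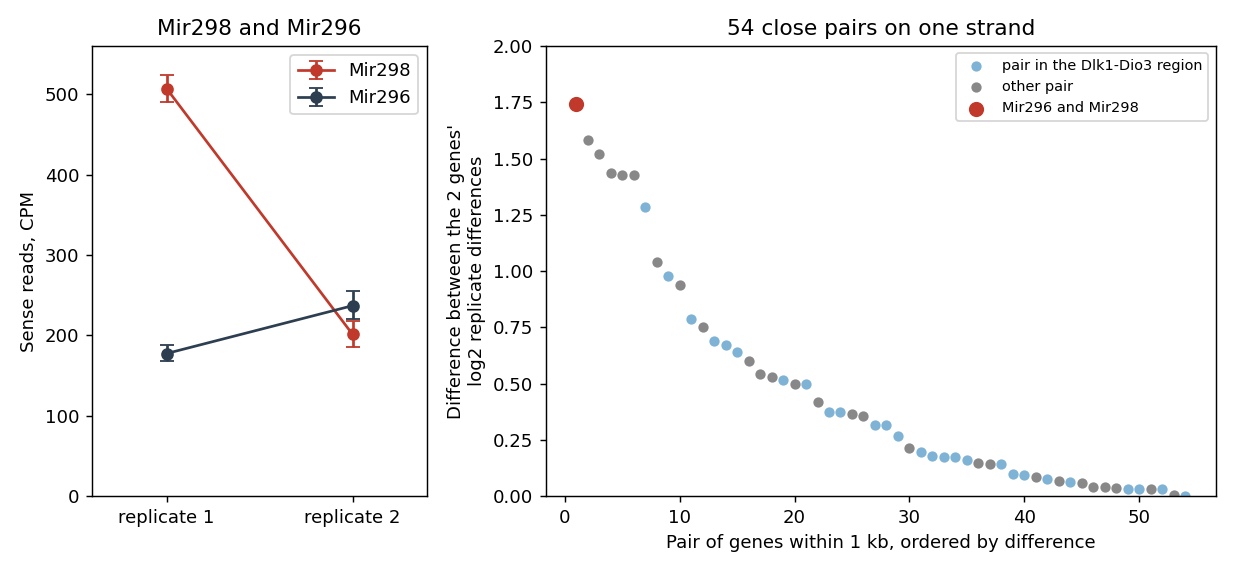
Left, CPM of Mir298 (red) and Mir296 (dark) in the 2 libraries with exact 95% intervals for counting error; right, the absolute gap between the log2 replicate differences of the genes of each of 54 close pairs, in falling order, with Dlk1-Dio3 pairs in blue. The lines cross on the left, from 507 against 177 CPM to 201 against 237 CPM, and the pair heads the right panel at 1.74.

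Within 1 Mb, the loci had few other detected miRNA genes. Around Mir335 these were all on the opposite strand. Mir29a, 321 kb away and known for repressing collagen genes, stood at 8773 and 8591 CPM, with a log2 replicate difference of −0.03. Mir29b-1 beside it stood at 21.1 and 17.5 CPM, and it shares 20 bases with Mir29b-2 and Mir29c, so its count is a lower limit. Mir182 and Mir183, miRNAs of sensory and epithelial cells, lie 575 and 572 kb away. Mir182 stood at 136 and 264 CPM and Mir183 at 102 and 156 CPM, neither past 2-fold. Mir96 of the same cluster stood at 6.63 and 3.24 CPM. Around Mir296 and Mir298 the other miRNA genes, Mir6340 and Gm27591, had 0 reads in both libraries. Gm27591 shares 20 bases with other hairpins, so its count too is a lower limit. Around Mir483 and Mir675, Mir3104 and Mir7064 had 0 reads and Mir7063 had 1 read in replicate 1.

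Genes of like level were found by the distance over the log2(CPM + 1) values of the 2 libraries, among genes without 20 shared bases. Nearest to Mir335 was Mir34a, a p53 target, at 2908 and 1364 CPM and a distance of 0.26, followed by Mir337 at 0.35 and Mir328 at 0.41. Nearest to Mir296 were Mir673 and Mir503, each at a distance of 0.14, and Mir329 at 0.28. Nearest to Mir483 were Mir701 at 0.10, Mir592 at 0.16 and Mir346 at 0.50. Mir298 had no gene as near. Its closest was Mir342 at 0.77, with 482 and 344 CPM, then Mir667 at 0.82 and Mir1981 at 0.83. With 2 libraries these distances describe level more than pattern.

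Other imprinted miRNA genes give the scale. The 67 miRNA genes between Dlk1 and Dio3 on chromosome 12, which are maternally expressed, held 8.75% ± 1.06 of miRNA reads (SD, n = 2), led by Mir127 at 24415 ± 3300.4 CPM. Mir335 at 2099 ± 733 CPM lay below Mir127 in both libraries. The 119 miRNA genes inside Sfmbt2 on chromosome 2 held 0.0528% ± 0.00702, led by Mir467d at 228 ± 42.4 CPM, and 117 of them share 20 bases with another hairpin, so this share is a lower limit. The 5 genes described here, at 0.267% ± 0.0908, lay above the Sfmbt2 share and below the Dlk1-Dio3 share in both libraries. Of the Dlk1-Dio3 genes 11 had 0 reads in both libraries, and of the Sfmbt2 genes 109. Past 2-fold between the libraries were 3 of the 50 Dlk1-Dio3 genes of at least 10 CPM, all higher in replicate 2, and 0 of the 5 such Sfmbt2 genes. The 3 are 6% of the 50, beside 6.07% called higher over all 280 genes, and such genes numbered 2 under TMM scaling and 1 under DESeq2 size factors. Mir184, near the imprinted Rasgrf1, stood at 16.0 ± 0.130 CPM, above Mir483 in both libraries.

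**Figure D4:**
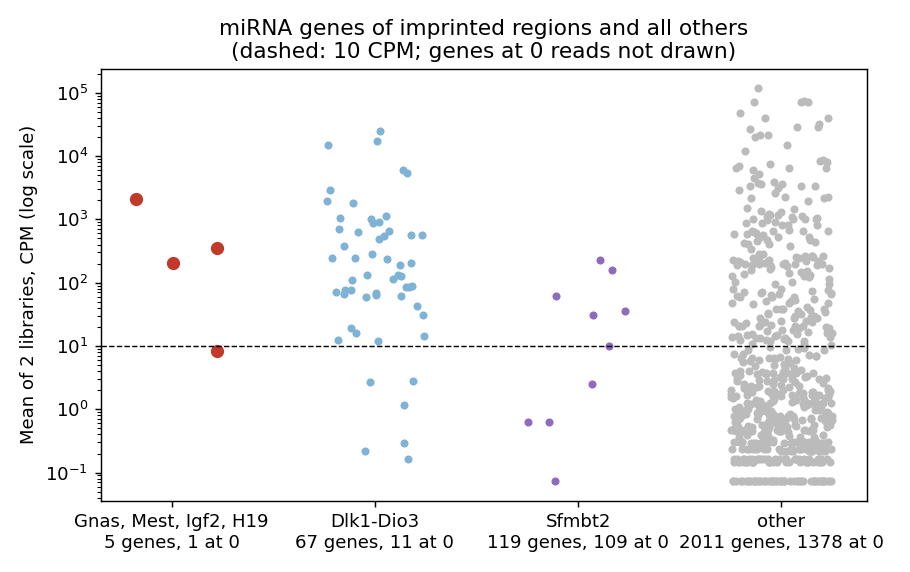
Mean CPM of 2 libraries (log axis) for the 5 genes of the Gnas, Mest, Igf2 and H19 loci, the 67 Dlk1-Dio3 genes, the 119 Sfmbt2 genes and the other 2011 genes of the table; each point is a gene, genes with 0 reads are counted under the axis and not drawn, and the dashed line marks 10 CPM. The 4 drawn members span 8.39 to 2099 CPM, inside the range of the Dlk1-Dio3 genes, which reaches 24415 CPM.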

How the data were processed

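The authors deposited, per library, read counts for 2202 GENCODE M21 miRNA genes on mm10, with columns for both strands, the strand of the gene and the opposite strand. The build and annotation are given per the text deposited beside the tables. For the aligner, its version and the trimming, nothing is given in the sources used here. The columns have no header, and their strands were read from the layout. Reads mapping to several places were given to no gene, and reads from a CAST allele were compared with a C57BL/6J reference, which could lower a count.

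From these counts, sense CPM, means and SD, exact binomial intervals and log2(CPM + 1) differences were computed (scipy 1.17.1). TMM factors came from edgeR 4.0.16 and size factors from DESeq2 1.42.0, as alternative scalings only. With 1 group no test was fitted. The log2 differences and the intervals of their ratios were tested on simulated data that held counting error only. Folding energies came from RNAfold 2.7.2 and mature sequences from RefSeq (GRCm38.p6). Detection meant above 2 CPM in both libraries, and 1087 genes of the table share 20 bases with a hairpin at another place.

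Named were the members, the 3 genes nearest to each detected member in level, neighbours within 1 Mb and seed partners of at least 10 CPM, the highest gene of each compared region, Mir184, and fixed cell type markers. The seed partners of bases 2 to 7, the neighbours under 10 CPM and the close pairs after Mir296 and Mir298 were named after their values were seen. The members and lists were chosen with earlier results of these data known.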

Additional observations from a re-analysis of the deposited data

How the results depend on the processing

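Mir298 was the 1 member past 2-fold under TMM, DESeq2 size factors, the column for both strands, pseudocounts of 0.5 and 5 CPM, no filter and a filter of 100 CPM. The filters leave each log2 difference as it is, so they could not change the call of Mir298. Over the scalings, columns and pseudocounts its log2 difference ran from −1.46 to −1.31, that of Mir335 from −0.86 to −0.73, of Mir483 from −0.31 to −0.13 and of Mir296 from 0.28 to 0.42. The median over all genes moved from 0.012 to −0.089 under TMM and −0.124 under DESeq2 size factors. Relative to that median, Mir298 was at −1.34 as reported and under both. This had to be so, apart from the pseudocount, since a scaling shifts all genes alike. The calls over all genes split 17 higher and 13 lower as reported, 12 and 17 under TMM, and 8 and 17 under DESeq2. They numbered 30, and 58 with no filter and 19 from 100 CPM, where more or fewer genes were tested. The summed share of the members ran from 0.203% to 0.331% when 1 library was left out. Ordered pairs numbered 7 on the CPM scale, and 10 in either library alone by counting intervals that do not overlap, with Mir296 and Mir298 in opposite order. Arms with a seed of their own fell from 10 to 6 with bases 2 to 7, an alternative chosen after seeing the data, as were those on close pairs. No paired analysis was possible because there is 1 group. Depth limits Mir483 and Mir675: the first rests on 61 and 24 reads and the second on 0.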
